A study of Rattus norvegicus with 18 samples.

Results

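The genes described here are 10 enzymes of branched-chain amino acid catabolism, Bcat1, Bcat2, Bckdha, Bckdhb, Dbt, Acadsb, Acad8, Ivd, Mccc1 and Mccc2, found by symbol among the 6588 genes that appear in at least 1 of the 3 deposited tables of changed genes. Each symbol matched 1 Ensembl identifier. The tables come from polyadenylated RNA of the left ventricle of 18 male rats, 6 in each of 3 groups. ZSF1 Obese rats have hypertension with metabolic syndrome and stand for HFpEF, heart failure in which the ejection fraction is preserved, ZSF1 Lean rats have hypertension, and WKY (Wistar Kyoto) rats are the control strain. ZSF1 rats are hybrids of a diabetic fatty and a hypertensive line. The obese animals lack a working leptin receptor, while the lean ones keep a working copy. WKY is another strain, so a difference from WKY combines strain and disease, which cannot be told apart. Ages are not given in the labels.

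Leucine, isoleucine and valine are first stripped of their amino group by an aminotransferase, cytosolic (Bcat1) or mitochondrial (Bcat2), and the resulting keto acids are then decarboxylated in mitochondria by the branched-chain keto acid dehydrogenase complex, the committed and irreversible step. The alpha and beta subunits of its decarboxylase are encoded by Bckdha and Bckdhb, and its lipoate-bearing transacylase core by Dbt. Beyond it the routes part. Ivd acts on the leucine product, Acad8 on that of valine and Acadsb on that of isoleucine, and Mccc1 and Mccc2 form the methylcrotonyl-CoA carboxylase of the leucine route. Heart muscle is known for high activity of the mitochondrial aminotransferase, and the pathway feeds acetyl-CoA and succinyl-CoA into the tricarboxylic acid cycle.

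In obese hearts the transcripts of the mitochondrial enzymes fell and that of the cytosolic aminotransferase rose, against lean and against WKY hearts alike. Of the 10 genes, 9 were lower and 1 was higher in each of these comparisons, while of all listed genes 46.6% were lower and 53.4% higher for obese against lean, and 46.0% were lower and 54.0% higher for obese against WKY. With a stricter limit of 4-fold, 7 of the 10 were lower in each comparison, against 15.8% and 16.3% of the listed genes. None of the 10 was listed for lean against WKY, a table of 233 genes of which 36.1% were lower and 63.9% higher. The tables hold only genes that differed by 2-fold or more (folds of 0.5 and below, or 2 and above) with a small adjusted p-value, so a listed gene had to differ, and a gene that is not listed may have changed less, failed the test or not been detected. As a rough measure of how often genes were listed, 22.8% of the 23154 protein-coding symbols in RefSeq were named for obese against lean, 22.9% for obese against WKY and 0.881% for lean against WKY. The number of genes the authors tested is not given in the sources used here.

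A fold below is the ratio of obese to lean, or of obese to WKY, as the authors deposited it, and the adjusted p-value beside it is theirs, from DESeq2 with 6 rats in each group. The fold and this p are the deposited measures, so values per rat, their spread and the overlap of the groups were not analysed here. Bulk RNA does not tell fewer cells of a type from less RNA per cell. Protein, enzyme activity and flux through the pathway are not part of these data.

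The aminotransferases parted. Bcat2 (ENSRNOG00000020956), which carries out the mitochondrial step, had a fold of 0.145 in obese against lean hearts per the authors' deposited table (adjusted p = 3.51e-79) and of 0.204 against WKY (adjusted p = 2.89e-48). Bcat1 (ENSRNOG00000015514), the cytosolic form, known mainly from brain, immune and proliferating cells, had a fold of 4.53 in obese against lean hearts per the authors' deposited table (adjusted p = 2.92e-11) and of 4.14 against WKY (adjusted p = 1.86e-08). The fold of Bcat1 divided by that of Bcat2 was 31.3 for obese against lean and 20.3 for obese against WKY. This quotient describes how far the pair moved apart and was not tested, and it does not say which form was more abundant, since no levels were used. Bcat1 lay above the median of the listed genes that were higher, whose folds had a median of 3.01 against lean and 3.05 against WKY. Its adjusted p-values were the largest among the 10 genes in the comparison with lean hearts and in that with WKY hearts.

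All 3 genes of the keto acid dehydrogenase complex fell, its decarboxylase subunits less than its core. Bckdha (ENSRNOG00000020607) reached 0.262 of its lean level in the obese (adjusted p = 1.23e-26) and at 0.403 of the WKY level (adjusted p = 5.25e-12) in the authors' deposited table. Bckdhb (ENSRNOG00000009928), whose product pairs with that of Bckdha, had nearly the same fold in each comparison, 0.259 against lean (adjusted p = 1.71e-15) and 0.257 against WKY (adjusted p = 8.72e-15), in the authors' deposited table. Dbt (ENSRNOG00000015029) was lower still in the authors' deposited table, at 0.152 of the lean level (adjusted p = 1.28e-176) and 0.171 of the WKY level (adjusted p = 1.00e-107). The differences between subunits of the complex were not tested. Bckdha in obese against WKY hearts was the smallest fall of the 9 genes, and 74.2% of the listed genes that were lower in that comparison had fallen at least as far. In obese against lean hearts the corresponding share was 37.3% for Bckdha, 36.4% for Bckdhb and 14.4% for Dbt.

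The acyl-CoA dehydrogenases, which oxidise the branched acyl-CoA esters and pass their electrons to the electron transfer flavoprotein, held the largest fall. Acadsb (ENSRNOG00000020624), of the isoleucine route, reached 0.046 of its lean level in the obese (adjusted p = 1.53e-295), a 21.7-fold difference, and at 0.079 of the WKY level (adjusted p = 6.15e-132), a 12.7-fold difference, in the authors' deposited table. It ranked 25 of the 2655 genes that were lower against lean and 100 of the 2625 that were lower against WKY, counted from the lowest fold. Acad8 (ENSRNOG00000048164), of the valine route, was at 0.132 of the lean level (adjusted p = 1.84e-193) and 0.191 of the WKY level (adjusted p = 2.61e-100) in the authors' deposited table. Ivd (ENSRNOG00000009421), of the leucine route, was close to it in the authors' deposited table, at 0.124 of the lean level (adjusted p = 3.46e-58) and 0.188 of the WKY level (adjusted p = 2.84e-35). The gene of the isoleucine enzyme thus stood apart from those of leucine and valine in the size of its fall, a difference that was not tested.

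The genes of both subunits of methylcrotonyl-CoA carboxylase fell. Mccc1 (ENSRNOG00000013293), the subunit that carries biotin, stood at 0.156 of the lean level (adjusted p = 2.45e-240) and 0.218 of the WKY level (adjusted p = 6.20e-94) per the authors' deposited table. Mccc2 (ENSRNOG00000017752), the carboxyltransferase subunit, was the second lowest of the 10 genes in the authors' deposited table, at 0.097 of the lean level (adjusted p = 1.02e-159) and 0.12 of the WKY level (adjusted p = 6.24e-114). By step, the median fold of obese against lean was 0.259 for the 3 keto acid dehydrogenase genes, 0.124 for the 3 acyl-CoA dehydrogenases and 0.127 for the 2 carboxylase subunits. Against WKY these medians were 0.257, 0.188 and 0.169. Among the 10 genes, the steps beyond the complex had lower median folds than its 3 genes in each comparison, while Dbt alone had folds in their range. Dld, the complex's shared subunit gene outside the 10, does not enter these medians. Its folds of 0.146 against lean and 0.17 against WKY lay in that range too. Genes farther down the routes, described below, lay on either side of the median of 0.259 of those 3 genes against lean. Auh, Hsd17b10, Pccb and Mcee stood at 0.27, 0.426, 0.376 and 0.432 of the lean level. Aldh6a1, Hibadh, Pcca and Mmut stood at 0.078, 0.117, 0.096 and 0.105. Over the 9 genes that were lower the median fold was 0.145 against lean and 0.191 against WKY, while over all listed genes that were lower it was 0.314 and 0.312.

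**Figure D1:**
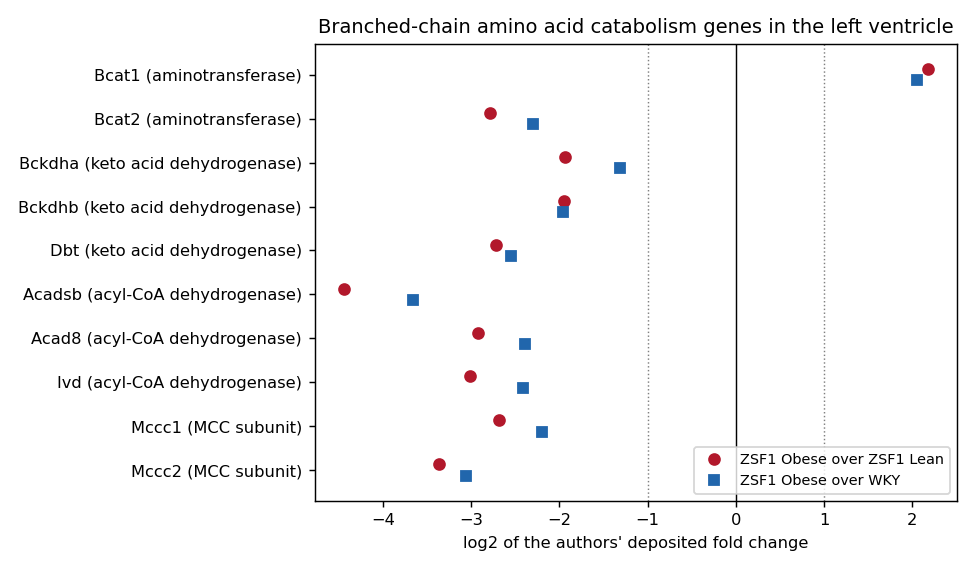
The log2 of the deposited fold change of each gene is plotted for ZSF1 Obese over ZSF1 Lean (circles) and ZSF1 Obese over WKY (squares), with dotted lines at the 2-fold limits of the tables and a solid line at no difference. Bcat1 is the single gene to the right of 0, and Acadsb lies farthest to the left, at -4.44 and -3.66.

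**Figure D2:**
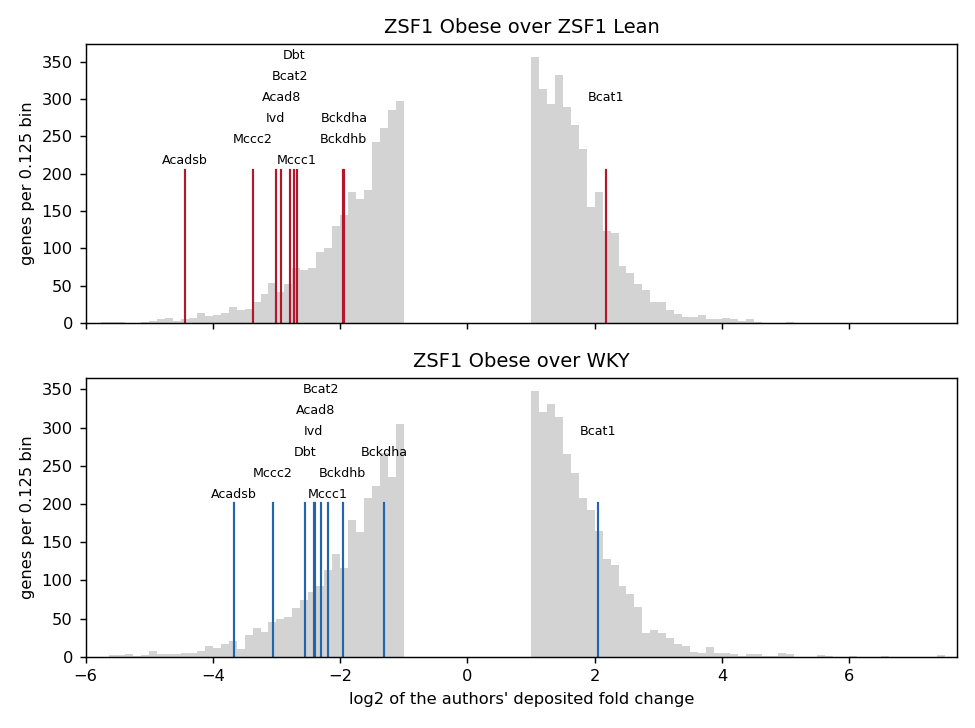
Grey bars count all genes of each table by the log2 of the deposited fold change, ZSF1 Obese over ZSF1 Lean above and ZSF1 Obese over WKY below, and coloured lines mark the 10 genes. The gap around 0 is the range that the tables leave out, and Acadsb and Mccc2 sit in the left tail of each panel.

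Since 9 of these genes moved together and Bcat1 moved the other way, the stretches upstream of their transcription starts are shown for genes that represent the contrast. RefSeq windows on build GRCr8 were matched by symbol for 8 of the 10 genes, Bcat1 with 2 starts, and the 250 bases before each start were read. The aminotransferase pair, Acadsb with the largest fall, and a pair of leucine-route genes, Ivd and Mccc1, are given 5′ to 3′ on the strand of the gene. Capitals mark matches, on either strand, to CCAAT, the box bound by NF-Y, to GGGCGG, the core of an Sp1 box, and to CCCCACCC, a CACCC box of the kind that Kruppel-like factors bind. Matches may overlap.
Bcat2, chr1:105178889-105179138, plus strand: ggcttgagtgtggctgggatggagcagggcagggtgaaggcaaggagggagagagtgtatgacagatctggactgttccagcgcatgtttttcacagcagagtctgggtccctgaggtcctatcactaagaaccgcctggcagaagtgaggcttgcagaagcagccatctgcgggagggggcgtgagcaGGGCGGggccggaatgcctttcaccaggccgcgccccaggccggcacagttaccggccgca
Bcat1, upstream start, chr4:179777289-179777538, minus strand: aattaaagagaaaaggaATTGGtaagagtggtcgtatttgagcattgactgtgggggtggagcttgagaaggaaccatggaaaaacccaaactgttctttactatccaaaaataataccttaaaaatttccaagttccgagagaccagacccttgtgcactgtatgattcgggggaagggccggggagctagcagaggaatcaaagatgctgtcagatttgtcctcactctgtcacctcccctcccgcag
Bcat1, downstream start, chr4:179744209-179744458, minus strand: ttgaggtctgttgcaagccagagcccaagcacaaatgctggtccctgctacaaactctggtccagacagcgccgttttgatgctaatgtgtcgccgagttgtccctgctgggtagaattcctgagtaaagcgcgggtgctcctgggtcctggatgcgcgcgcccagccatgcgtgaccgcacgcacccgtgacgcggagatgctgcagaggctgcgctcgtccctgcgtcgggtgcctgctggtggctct
Acadsb, chr1:195618966-195619215, plus strand: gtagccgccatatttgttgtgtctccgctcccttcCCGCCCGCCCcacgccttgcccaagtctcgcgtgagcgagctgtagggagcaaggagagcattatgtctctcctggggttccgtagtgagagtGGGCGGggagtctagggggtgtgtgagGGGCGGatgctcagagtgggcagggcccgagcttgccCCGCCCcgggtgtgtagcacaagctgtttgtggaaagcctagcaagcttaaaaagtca
Ivd, chr3:126305334-126305583, plus strand: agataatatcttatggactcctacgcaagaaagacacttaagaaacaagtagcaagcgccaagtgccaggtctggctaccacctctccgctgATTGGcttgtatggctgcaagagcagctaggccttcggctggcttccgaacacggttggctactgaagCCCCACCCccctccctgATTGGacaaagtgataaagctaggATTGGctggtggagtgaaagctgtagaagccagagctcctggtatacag
Mccc1, chr2:120779242-120779491, minus strand: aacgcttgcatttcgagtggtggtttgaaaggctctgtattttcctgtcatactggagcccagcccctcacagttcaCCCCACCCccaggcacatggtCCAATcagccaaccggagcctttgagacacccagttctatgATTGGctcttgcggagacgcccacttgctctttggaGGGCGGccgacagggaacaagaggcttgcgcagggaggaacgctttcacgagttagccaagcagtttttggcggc

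CCAAT, read on either strand, was present upstream of 5 of the 8 matched genes (Bcat1 at its upstream start, Bckdhb, Dbt, Ivd and Mccc1). This was 5 of their 9 windows, beside 34.0% of all 33469 windows of the same length. Ivd held 3 copies, the most among these genes. GGGCGG was present upstream of 6 genes (Acad8, Acadsb, Bcat2, Bckdhb, Dbt and Mccc1). This was 6 of the 9 windows, beside 30.5% of all windows, and Acadsb held 5 copies, some of them overlapping. Neither Bcat1 window held GGGCGG, and nor did the window of Ivd, a gene that fell. CCCCACCC was found upstream of Ivd and Mccc1, 2 of the 9 windows, and in 8.47% of all windows. The upstream Bcat1 window held 46.0% G and C and 5 CpG pairs, while the other 8 windows of these genes held 52.0% to 62.4% G and C and 6 to 19 CpG pairs, and the medians of all windows were 51.2% and 5 pairs. No match in these windows was found for TNAAGGTCA (1.04% of all windows), its shorter core AGGTCA (14.1%), CACGTG (5.59%), CTTCCGG (7.27%), TATAAA (12.9%) or TGACGTCA (1.59%). These are matches of letters, searched on both strands after the windows had been read, and nothing about binding was measured.

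The other genes of the pathway moved mostly as those of the mitochondrial enzymes did. Of 40 genes in the list of partners, later steps, transport, cofactor supply and leucine sensing, 26 were lower and 2 higher in obese than in lean hearts, and the same numbers held for obese against WKY, with 12 not listed in each. Of all listed genes, 46.6% were lower and 53.4% higher against lean, and 46.0% and 54.0% against WKY. The median fold of the 28 listed genes was 0.243 against lean and 0.252 against WKY. None of the 40 was listed for lean against WKY. Of the protein-coding symbols in RefSeq, 22.8% were listed for obese against lean and 22.9% for obese against WKY. For lean against WKY it was 0.881%, too small a share for the absence of the 40 to set them apart from other genes. Several genes of this list that fell also serve fatty acid or ketone oxidation (Hadha, Hadhb, Oxct1, Acat1, Etfa and Etfdh) or other dehydrogenase complexes (Dld). Of these, Oxct1 stood at 0.06 of the lean and 0.077 of the WKY level, and Hadhb at 0.072 and 0.076. Against WKY both folds were slightly below that of Acadsb, 0.079. Echs1, a hydratase shared with fatty acid oxidation, and Etfb, of the electron transfer flavoprotein, were not listed.

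Around the keto acid dehydrogenase, Dld, which encodes the shared dihydrolipoamide dehydrogenase, stood at 0.146 of the lean level (adjusted p = 6.07e-60) and 0.17 of the WKY level in the authors' deposited table. Ppm1k, the phosphatase that activates the complex, stood at 0.122 of the lean level (adjusted p = 2.86e-130) and 0.107 of the WKY level in the authors' deposited table. Bckdk, the kinase that switches the complex off, was not listed in any table. Slc25a44, a mitochondrial carrier of branched-chain amino acids, was at 0.308 and 0.277 of the lean and WKY levels in the authors' deposited table, while the plasma membrane transporter genes Slc7a5, Slc7a8, Slc3a2, Slc43a1 and Slc43a2 were not listed. Klf15, a transcription factor gene known from mouse heart to drive genes of this pathway, stood at 0.2 of the lean level (adjusted p = 7.22e-98) and 0.237 of the WKY level in the authors' deposited table.

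Farther down the routes the size of the fall varied from gene to gene. In the leucine route, Auh, the methylglutaconyl-CoA hydratase, stood at 0.27 of the lean level in the authors' deposited table, less reduced than Ivd, Mccc1 and Mccc2 above it. Oxct1, at the end of that route and shared with ketone oxidation, stood at 0.06 of the lean level, below each of them. It does not enter the route medians given below. In the valine route the low point was Aldh6a1, methylmalonate semialdehyde dehydrogenase, at 0.078 of the lean level (adjusted p = 6.6e-135) in the authors' deposited table, followed by Hibadh at 0.117 and Hibch, which removes the CoA, at 0.24. In the isoleucine route, Hsd17b10 and Acat1 followed Acadsb at 0.426 and 0.257 of the lean level in the authors' deposited table. Of the propionyl-CoA steps, the biotin-bearing subunit gene Pcca and the mutase gene Mmut stood at 0.096 and 0.105 of the lean level in the authors' deposited table, while Pccb and Mcee were at 0.376 and 0.432. The median fold against lean was 0.140 over 4 leucine-route genes, 0.1245 over 4 valine-route genes and 0.257 over 3 isoleucine-route genes, all of them lower. Each route thus held falls, and within a route the folds ranged widely.

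**Figure D3:**
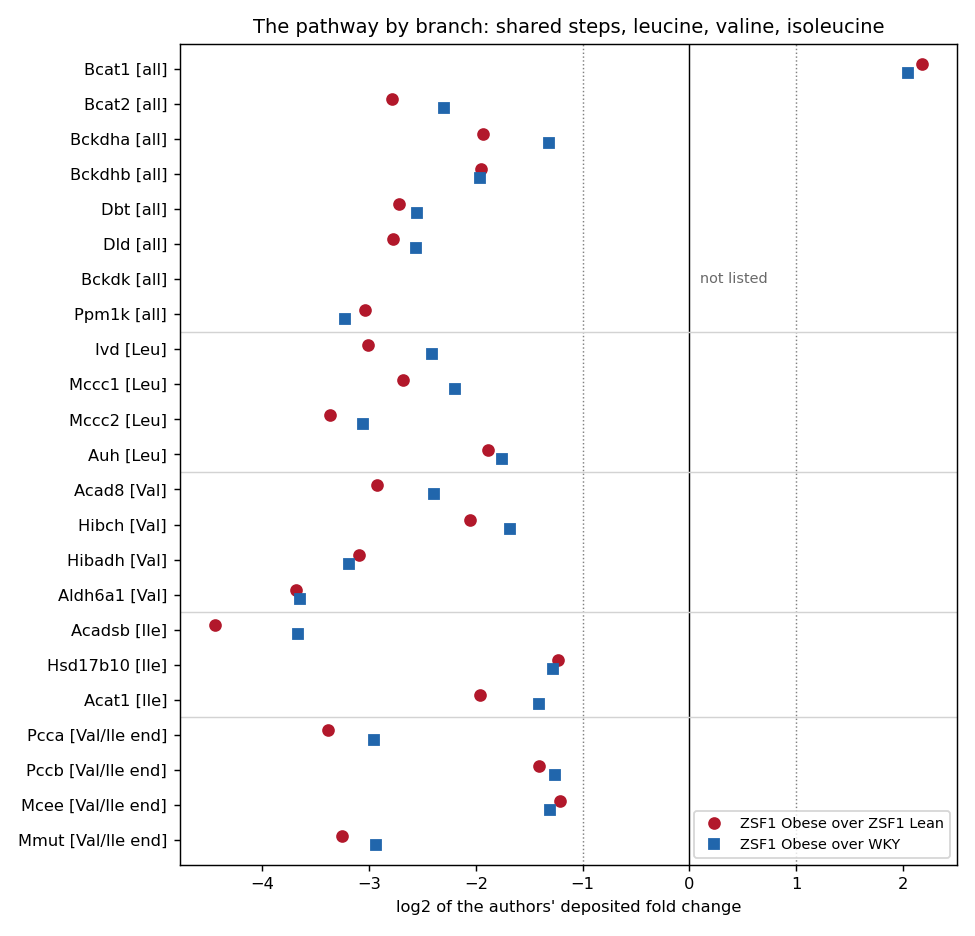
The log2 of the deposited fold change is shown for 23 genes from the shared steps through the leucine, valine and isoleucine routes to the propionyl-CoA steps, with ZSF1 Obese over ZSF1 Lean as circles and ZSF1 Obese over WKY as squares. Of these genes 21 lie left of 0 in each comparison, Bcat1 lies right of it and Bckdk was not listed.

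Cofactor supply and leucine sensing held the other rises. Lias and Lipt1, which make and transfer the lipoate that Dbt needs, stood at 0.259 and 0.245 of the lean level in the authors' deposited table, and Hlcs, which attaches biotin to carboxylases such as that of Mccc1, at 0.23. Btd, which recycles biotin, was higher in obese hearts, with a fold of 2 against lean (adjusted p = 5.04e-27) and 2.22 against WKY in the authors' deposited table, the first of these exactly at the limit of the table. Among the sestrin genes, whose products restrain mTORC1, Sesn1 and Sesn3 each stood at 0.27 of the lean level in the authors' deposited table, while Sesn2, known in human cells as a leucine sensor, had a fold of 2.25 (adjusted p = 4.37e-21). Rptor, an mTORC1 subunit gene, stood at 0.369 of the lean level in the authors' deposited table, and Mtor and Lars1 were not listed.

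Relatives of the 10 enzymes in other pathways mostly fell as well. Of 22 such genes, 20 were lower in obese than in lean hearts and 18 in obese than in WKY hearts, and 0 were higher in either. The median fold of those listed was 0.167 against lean and 0.186 against WKY, near the medians of the branched-chain genes. Of all listed genes, 46.6% were lower against lean and 46.0% against WKY. Of the aminotransferases of other amino acids, the cytosolic Got1 stood at 0.131 of the lean level, the mitochondrial Got2 at 0.156, the cytosolic Gpt at 0.415 and the mitochondrial Gpt2 at 0.157 in the authors' deposited table. In those pairs the cytosolic and the mitochondrial gene were both lower, unlike Bcat1 and Bcat2. Gpt was not listed against WKY, where Got1 stood at 0.108, Got2 at 0.173 and Gpt2 at 0.176 per the authors' deposited table. Among the other acyl-CoA dehydrogenases the lowest fold against lean was 0.127, for the medium-chain gene Acadm, in the authors' deposited table, so that Acadsb lay below all 7 listed relatives and Acadl was not listed. Among the other complexes of the keto acid dehydrogenase type, Ogdh reached 0.03 of the lean level in the authors' deposited table, below each branched-chain subunit, and the core gene Dlat of pyruvate dehydrogenase stood at 0.097, against 0.152 for Dbt.

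**Figure D4:**
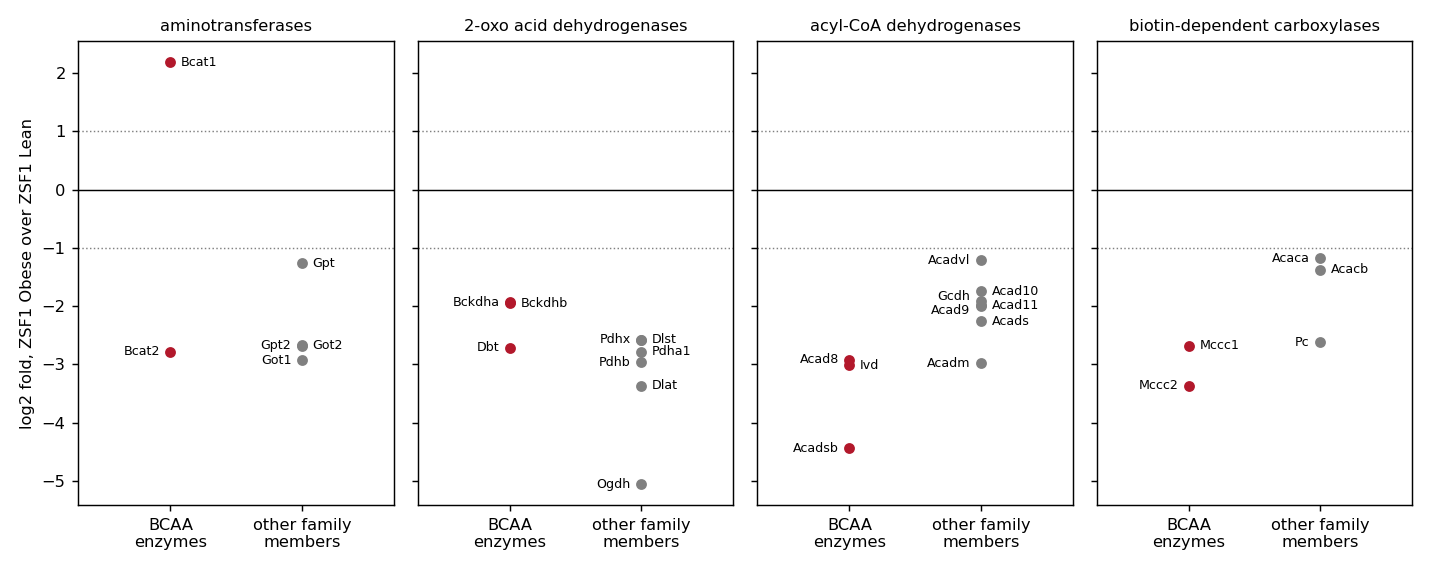
The log2 of the deposited fold of ZSF1 Obese over ZSF1 Lean is plotted for the branched-chain enzymes (red) beside other members of their families (grey) that the table lists, with dotted lines at the 2-fold limits. Bcat1 is the single gene above 0, Acadsb lies below every other acyl-CoA dehydrogenase, and Ogdh lies below the branched-chain subunits.

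Markers of cell types moved in the same comparisons. Of 12 cardiomyocyte markers 7 were lower and 0 higher in obese than in lean hearts, with a median fold of 0.301 over the 7 and a range of 0.187 to 0.369, and 7 were lower against WKY with a median of 0.287 and a range of 0.195 to 0.371. Myh7, Tnnt2, Tnni3, Myl2 and Pln were not listed. Of the 9 lower branched-chain genes, all had a fold against lean under that marker median, and 7 had one under the lowest marker fold. Against WKY, 8 of the 9 lay under the marker median and 5 under the lowest marker fold, while Bckdha lay above every listed marker. The marker median is the fold of Tnnc1, and markers that are not listed do not enter it. Of all genes listed as lower, 47.2% against lean and 43.8% against WKY had fallen at least as far as Tnnc1. For the lowest marker, Myh6, these shares were 20.7% and 22.8%. Of 12 macrophage markers 11 were higher against lean with a median fold of 3.32 and 12 against WKY with a median of 4.53. Markers of endothelium were higher in 10 of 12 cases against lean (median 3.21), of fibroblasts in 6 of 12 (median 4.65) and of lymphocytes in 8 of 12 (median 3.49), and against WKY in 10 (median 3.12), 8 (median 3.77) and 8 (median 2.85), with 0 lower in any. Of all listed genes, 46.6% were lower and 53.4% higher against lean, and 46.0% were lower and 54.0% higher against WKY. Of the protein-coding symbols in RefSeq, 22.8% and 22.9% were listed in these comparisons. The fold of Bcat1 against lean, 4.53 in the authors' deposited table, lies within the ranges of the listed markers of macrophages (2.53 to 9), fibroblasts (2.75 to 20.0), endothelium (2.19 to 4.96) and lymphocytes (2.51 to 5.21). The median fold of all genes listed as higher against lean, 3.01, lies within each range too, so this does not link Bcat1 to a cell type. The part of these cell types in the results for the branched-chain genes was not tested, and since levels are not part of the tables, the labelled tissue was not checked against absolute marker levels.

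The third comparison, lean against WKY, can be set beside the others through arithmetic. The obese comparisons share the obese rats, so dividing the obese over WKY fold by the obese over lean fold gives an implied ratio of lean to WKY. It was 1.72 for Acadsb, 1.54 for Bckdha, 1.52 for Ivd, 1.45 for Acad8, 1.41 for Bcat2, 1.40 for Mccc1, 1.24 for Mccc2, 1.13 for Dbt, 0.992 for Bckdhb and 0.914 for Bcat1. All 10 lie inside the range of 0.5 to 2 that the tables leave out. On the log2 scale the median of the 10 genes was 0.49, against 0 for the 4847 genes listed in the obese tables together, whose quartiles were -0.19 and 0.21, and 7 of the 10 lay above the upper quartile. The falls against WKY were thus smaller than the falls against lean for 8 of the 9 genes, Bckdhb being the exception, which was not tested. The background of 4847 genes joins lower and higher genes, and the shift was not confined to the branched-chain genes. The 6 other acyl-CoA dehydrogenases listed in each obese table had log2 implied ratios from 0.18 (Acad10) to 0.84 (Acad11). Relatives of other families ranged from -0.28 (Got1) to 0.84 (Pc). For the 79 genes listed in all 3 tables the implied and the deposited lean over WKY values had the same sign in 79 cases but differed by a median of 0.34 and an SD of 0.76 on the log2 scale, so an implied ratio is a rough guide. The largest adjusted p-value in the lean table was 0.000347, against 0.0498 and 0.0499 in the obese tables, so absence from the lean table need not mean the same as absence from the others.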

How the data were processed

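RNA was extracted with a Qiagen RNeasy kit, and its polyadenylated part was sequenced as single reads after a stranded TruSeq preparation, per the labels' protocols. Build Rnor_6.0 and the tools HISAT2 2.1.0, HTSeq 0.11.2 and DESeq2 1.22.2 are named in the submitters' processing notes, with no role, setting or filter. Per the file headers, each of the 3 tables gives a linear fold change, a ratio of the first named group to the second, and a false discovery rate, the authors' adjusted p-value. Both deposited columns were used as they stand. In the obese tables the log2 of every fold over 8 fell within 0.0002 of a value with 2 decimals, so the folds are rounded. The tables hold no values per rat, so depth is unknown, and no count test, left-out rat or search for unusual samples could be made.

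Genes were matched by symbol with pandas 2.3.3 (Python 3.11.15), counted by direction, ranked and summarised by medians, with the listed genes of the same table as background. The counting was tested on copies of the obese tables in which known folds had been planted, and not on the table for lean against WKY. The members and lists were chosen with earlier results of these data known. All 10 members are named, and genes of the lists only where they were listed or are absent. Some genes of the pathway are not reported here. Upstream sequences are from RefSeq, build GRCr8, and the windows and motifs were chosen after the results had been seen. Alternatives were stricter limits on the fold and the adjusted p-value, counting once per symbol, and the rounding of the folds.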

Additional observations from a re-analysis of the deposited data

How the results depend on the processing

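The count of the 10 enzymes stayed within 1.5 times its value in each obese comparison, in each direction, under an adjusted p under 0.001, a fold of at least 3, a fold of at least 4 and counting once per symbol. Only the fold limits could change this count. The largest DESeq2 adjusted p-value among the 10 genes was 1.86e-08, and each symbol matched 1 identifier. At 4-fold, 7 of the 9 lower genes were left in each obese comparison. In the table for lean against WKY, from the authors' DESeq2 test, the count was 0 as deposited. Stricter limits can only remove genes, so they say nothing about that count, and unadjusted p-values were not part of the table. The 40 other pathway genes depended more on the limit. At least 4-fold changes left 15 of the 28 listed against lean, all 15 lower, and 14 against WKY, all 14 lower. Of all listed genes, 15.8% were lower by at least 4-fold against lean and 16.3% against WKY. The 2 that were higher dropped to 0 at 3-fold and at 4-fold in each obese comparison, which follows from their folds near 2. The median implied lean over WKY ratio of the 10 genes was 1.40 as deposited, and 1.39 to 1.41 at the ends of the rounding of the folds. The limit set for this shift was the SD of the difference between implied and deposited values, 0.76 on the log2 scale. Rounding could not produce a shift of that size, so the limit decides nothing. No paired analysis was possible because the tables hold no values per rat and the groups share no replicate numbers, and for the same reason leaving out single rats was not run.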
